A study of Mus musculus with 8 samples.

Results

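The genes described here encode the cytosolic factors that act after translation has started, chosen by name: Eef1a1, Eef1b2, Eef1d, Eef1g, Eef2, Eef2k, Eif5a, Etf1, Gspt1 and Abce1. They are 10 of the 54838 genes in the count table, and all 10 passed the filter on low counts that left 10911 genes for testing. During elongation, eEF1A carries aminoacyl-tRNA to the ribosome, the eEF1B subunits reload eEF1A with GTP, and eEF2 moves the ribosome along by a codon. eIF5A helps the ribosome form difficult peptide bonds, eRF1 and eRF3 release the finished chain at a stop codon, and ABCE1 splits the ribosome so that its subunits can be used again. Several of these factors are among the most abundant proteins of growing cells, and mammalian eEF1A, eEF1B and eEF2 mRNAs belong to the class whose translation is controlled through a terminal oligopyrimidine (TOP) tract.

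RNA came from acute myeloid leukaemia (AML) cells of C57BL/6 background that carried the RUNX1-RUNX1T1 fusion in both groups and had been grown in Ptprca recipient mice. The labels state sub-lethal irradiation of the recipients, whereas the methods of the study name it for its other models and not for this one. The 4 Vehicle and the 4 AG636 samples differed in treatment: AG636, an inhibitor of the pyrimidine synthesis enzyme DHODH, was given by gavage at 100 mg/kg b.i.d. Cells were sorted from bone marrow and spleen, and the study describes the sort both as high cKit alone and as cKit-positive and CD11b-negative. Which sample came from which tissue is not given in the labels, nor are the age of the mice, the day of collection or whether samples of a group are separate mice. The p-values below therefore measure the spread between samples, which may be partly technical, and would be too small if samples shared a mouse.

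Each sample held 6120030 to 7162036 counts assigned to genes. The 2 groups' totals gave p = 0.0571 (exact permutation test, two-sided, smallest possible p 0.0286). Counts were read at the 3′ ends of transcripts, so that a value does not grow with transcript length, and are given as CPM, counts per 1000000 counts of a TMM-scaled library size. Of 8 markers of a myeloid progenitor or AML blast, Kit was at 163 ± 9.62 CPM in Vehicle and 206 ± 41.0 CPM in AG636 (SD, n = 4), Myb at 447 and 579 CPM, Runx1 at 262.6 and 262.7 CPM and Spi1 at 35.9 and 47.6 CPM. Cd34 was at 8.63 and 12.3 CPM, Mpo was at 3.18 and 2.47 CPM, Ptprc at 3.87 and 5.24 CPM, and Cebpa at no more than 1 count in any sample. The summed level of 10 erythroid markers ran from 2480 to 6250 CPM in Vehicle and from 4867 to 6364 CPM in AG636. Progenitor genes were thus present, the granulocytic genes Mpo and Cebpa and the pan-leukocyte gene Ptprc were low or near absent, and erythroid genes were present.

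At the level of the whole group, 6 of the 10 genes fell in AG636 and none rose (limma-voom, Benjamini-Hochberg adjusted p below 0.05 over all genes tested). In the same comparison 8.49% of all tested genes were called lower and 5.47% higher. The genes that fell were Etf1, Abce1, Eef1d, Eef1g, Gspt1 and Eif5a, by 0.51 to 0.73 on the log2 scale. Of the 10 log2 fold changes 8 were below 0, as were 50.6% of those of all tested genes. Eef1a1, Eef1b2, Eef2 and Eef2k did not pass, with log2 fold changes of -0.27, -0.25, 0.16 and 0.10. The median log2 fold change of the 10 genes was -0.52, and that of all tested genes was -0.01. In bulk RNA, fewer cells of a type and less RNA per cell cannot be told apart.

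**Figure D1:**
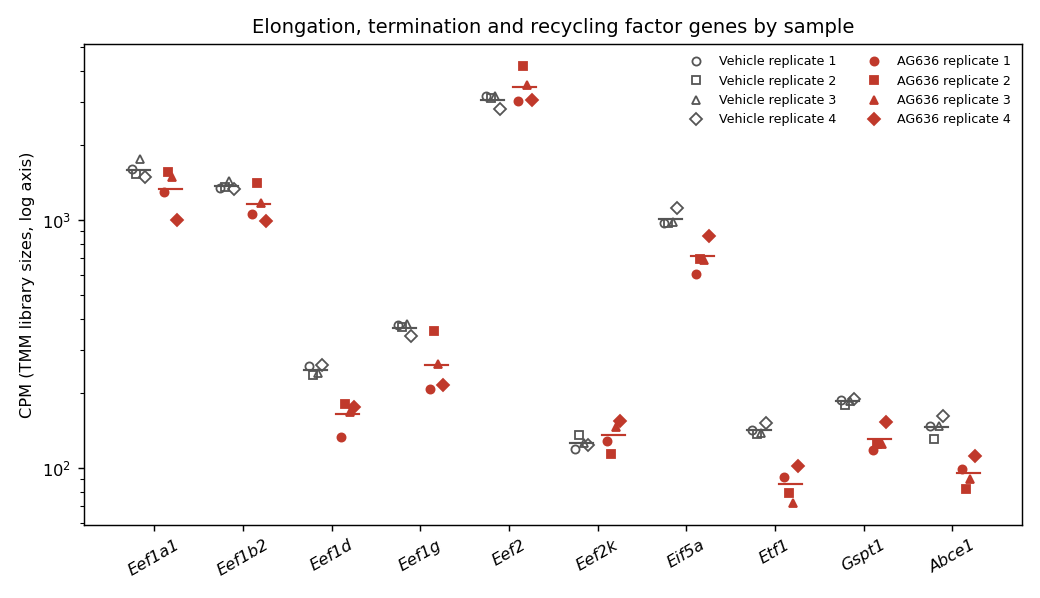
CPM (log axis) of each of the 10 genes in each of the 8 samples. Open grey symbols are Vehicle, filled red symbols are AG636, symbol shapes mark the replicate number and horizontal lines the group means; the 4 AG636 samples lie under all 4 Vehicle samples for Eef1d, Eif5a, Etf1, Gspt1 and Abce1.

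**Figure D2:**
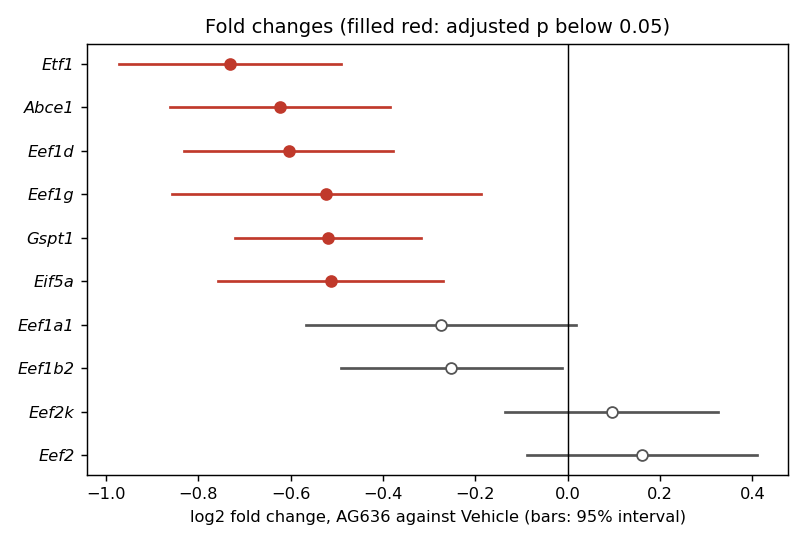
log2 fold change of AG636 against Vehicle for the 10 genes with its 95% interval from limma-voom. Filled red points have an adjusted p below 0.05; the 6 called genes lie between -0.73 and -0.51, and Eef2 and Eef2k lie above 0.

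All 3 termination and recycling factors fell. Etf1 (ENSMUSG00000024360) encodes eRF1, which reads the stop codon, and lies at chr18:34902785-34932007 on the minus strand (GRCm38, as are all coordinates here). Etf1 was at 142, 137, 137 and 152 CPM in Vehicle samples 1 to 4 and at 91.9, 78.9, 72.1 and 101 CPM in AG636 samples 1 to 4. All 4 AG636 samples lay under the lowest Vehicle sample. The log2 fold change was -0.73 (SE 0.11, 95% interval -0.97 to -0.49, adjusted p = 0.0034, limma-voom), which put the AG636 mean at 60.6% of the Vehicle mean.

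Gspt1 encodes eRF3a, the GTPase that works with eRF1, and is at chr16:11219292-11254325 on the minus strand. It was at 188, 178, 185.5 and 190.0 CPM in the Vehicle samples and at 118, 125.0, 125.1 and 152 CPM in the AG636 samples. The groups did not overlap, and AG636 sample 4 was the nearest to Vehicle. Its log2 fold change was -0.52 (SE 0.09, 95% interval -0.72 to -0.32, limma-voom adjusted p = 0.00588). Gspt1 overlaps 2610020C07Rik on the opposite strand over 26910 bases, a gene with 396 counts over the 8 samples against 8275 for Gspt1.

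Abce1, the ATPase that splits the ribosome after release, is at chr8:79683462-79711740 on the minus strand. Its 4 Vehicle values were 147.1, 131, 147.2 and 161 CPM, and its 4 AG636 values were 98.8, 81.7, 89.8 and 111 CPM. Again every AG636 sample was below every Vehicle sample. It changed by -0.62 on the log2 scale (SE 0.11, 95% interval -0.86 to -0.38, limma-voom adjusted p = 0.00569). Separation of the groups in this direction was seen for 12.9% of all tested genes and for 5 of the 10 factors, and separation in the other direction for 9.35% of all tested genes and for none of the factors.

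Because eRF1, eRF3a and ABCE1 act one after another, their transcript ratios were compared within samples. There was 1.31 times as much Gspt1 as Etf1 in Vehicle and 1.51 times as much in AG636 (geometric means of 4 samples), a log2 difference of 0.21 whose exact permutation p was 0.114 (0.214 adjusted over 6 ratios). For Abce1 over Etf1 the ratio was 1.03 in Vehicle and 1.11 in AG636, a log2 difference of 0.11 with an exact permutation p of 0.143 (0.214 adjusted). The groups overlapped in both ratios.

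Eif5a encodes the factor that carries hypusine, a modified lysine, and lies at chr11:69916714-69921958 on the minus strand. It was at 970.0, 975, 981 and 1123 CPM in Vehicle and at 603, 699, 690.2 and 863 CPM in AG636. In both groups replicate 4 was the highest, and the groups did not overlap. The difference was -0.51 on the log2 scale (SE 0.11, 95% interval -0.76 to -0.27, limma-voom adjusted p = 0.0136). Without Vehicle 4 and AG636 3 together it was -0.43 with an adjusted p of 0.0505.

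Of the eEF1 genes, Eef1d and Eef1g were called lower and Eef1b2 and Eef1a1 were not. Eef1d, the eEF1B subunit delta, is at chr15:75894205-75909556 on the minus strand and was at 257, 236, 240.2 and 259.9 CPM in Vehicle. In AG636 it was at 133, 180.4, 167 and 176 CPM, below Vehicle in all 4 samples. Its log2 fold change was -0.60 (SE 0.10, 95% interval -0.83 to -0.38, limma-voom adjusted p = 0.00531). The last 277 bases of Eef1d overlap Naprt on the same strand, where reads cannot be given to either gene with certainty. Naprt had 307 counts over the 8 samples against 10809 for Eef1d, with a log2 fold change of 0.17 (limma-voom adjusted p = 0.652). These counts set no limit to what Eef1d may have lost, as reads that match both genes may also have been left uncounted.

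Eef1g, the gamma subunit that anchors the eEF1B complex, is at chr19:8967041-8978479 on the plus strand. Its Vehicle values were 377, 369.6, 379 and 339 CPM and its AG636 values were 207.5, 358, 263 and 215 CPM. AG636 sample 2 lay inside the Vehicle range and the other 3 AG636 samples lay below it. The log2 fold change was -0.52 (SE 0.15, 95% interval -0.86 to -0.19, adjusted p = 0.0433). This call is close to the threshold: it was lost with edgeR's quasi-likelihood test (adjusted p = 0.0546) and when any 1 of Vehicle 1, 2, 3 or 4 or AG636 1, 3 or 4 was left out (limma-voom adjusted p of 0.051 to 0.112), with a fold change of -0.54 to -0.43 in those fits.

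Eef1b2, the alpha subunit of eEF1B with its nucleotide exchange activity, is at chr1:63176825-63180486 on the plus strand. It was at 1345, 1359, 1441 and 1330.1 CPM in Vehicle and at 1057, 1410.1, 1175 and 992 CPM in AG636. AG636 sample 2 again stood within the Vehicle range, above 3 of the 4 Vehicle samples. The log2 fold change of -0.25 (SE 0.11, 95% interval -0.49 to -0.01) had an adjusted p of 0.144. Without AG636 sample 2 it was -0.35 with an adjusted p of 0.0185.

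Eef1a1, the tRNA carrier itself, is at chr9:78478449-78489151 on the minus strand. The Vehicle samples held 1603, 1537, 1761 and 1494.2 CPM and the AG636 samples 1296, 1560.3, 1494.1 and 1002 CPM. The groups overlapped, with AG636 sample 4 the lowest and AG636 sample 2 above 2 of the Vehicle samples. Its log2 fold change was -0.27 (SE 0.13, 95% interval -0.57 to 0.02, adjusted p = 0.189). The 3′ end of Eef1a1 has near-identical copies in 18 other annotated genes, which took 7967 counts, 10.4% of the 76608 counts of Eef1a1. Most of these, 7579 counts, were assigned to Mir703, whose log2 fold change was -0.14 (adjusted p = 0.525). The Eef1a1 level, and with it the ratios to Eef1a1 below, is uncertain for this reason. The 10.4% sets no limit to that uncertainty, as reads that match several genes may also have been left uncounted.

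Whether the eEF1B subunits changed unequally to eEF1A was tested as a ratio within each sample. Eef1d over Eef1a1 was 0.156 in Vehicle and 0.124 in AG636, a log2 difference of -0.33 (exact permutation p = 0.143, adjusted 0.214). Eef1g over Eef1a1 was 0.229 and 0.193, a log2 difference of -0.25 (exact permutation p = 0.114, adjusted 0.214). Eef1b2 over Eef1a1 was 0.857 and 0.870, a log2 difference of 0.02 (exact permutation p = 0.857, adjusted 0.857). The groups overlapped in all 3 ratios. A change of a subunit relative to Eef1a1 was thus not resolved with 4 samples a group. The subunits were not tested against one another.

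Eef2, the translocase, is at chr10:81176631-81182498 on the plus strand and was the highest of the 10 genes, 14th of all genes by mean level. It was at 3168, 3109, 3156 and 2796 CPM in Vehicle and at 3025, 4195, 3507 and 3039 CPM in AG636. AG636 samples 2 and 3 were above all Vehicle samples and the other two were inside the Vehicle range. The log2 fold change was 0.16 (SE 0.11, 95% interval -0.09 to 0.41, limma-voom adjusted p = 0.370). That interval overlapped those of Eef1a1 and Eef1b2 and lay above those of the 6 factors called lower. Eef2 was not tested against any of the 8 factors whose estimates were below 0.

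Eef2k encodes the kinase that phosphorylates and slows eEF2, and is at chr7:120842831-120907450 on the plus strand. It was at 119, 135, 126 and 124 CPM in Vehicle and at 128, 113.5, 146 and 154 CPM in AG636. The log2 fold change was 0.10 (SE 0.10, 95% interval -0.14 to 0.33, adjusted p = 0.580). Eef2k over Eef2 was 0.0414 in Vehicle and 0.0395 in AG636, a log2 difference of -0.07 (exact permutation p = 0.83, adjusted 0.857). AG636 sample 2 was the lowest of all 8 samples for Eef2k and the highest of all 8 for Eef2.

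The summed share of the 10 genes in all assigned counts ran from 0.788% to 0.839% in Vehicle and from 0.696% to 0.866% in AG636, and the groups overlapped. Within that sum the make-up differed. Eef2 supplied 35.1% to 38.1% of the counts of the 10 genes in Vehicle and 44.6% to 47.7% in AG636, with no overlap (means 37.0% ± 1.42 and 45.6% ± 1.40, SD, n = 4). The other 9 genes together held 0.489% to 0.530% of all counts in Vehicle and 0.384% to 0.453% in AG636, also with no overlap. The shares of all counts are of unscaled totals, while the share of Eef2 within the 10 genes does not depend on library scaling. All are described without a test.

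**Figure D3:**
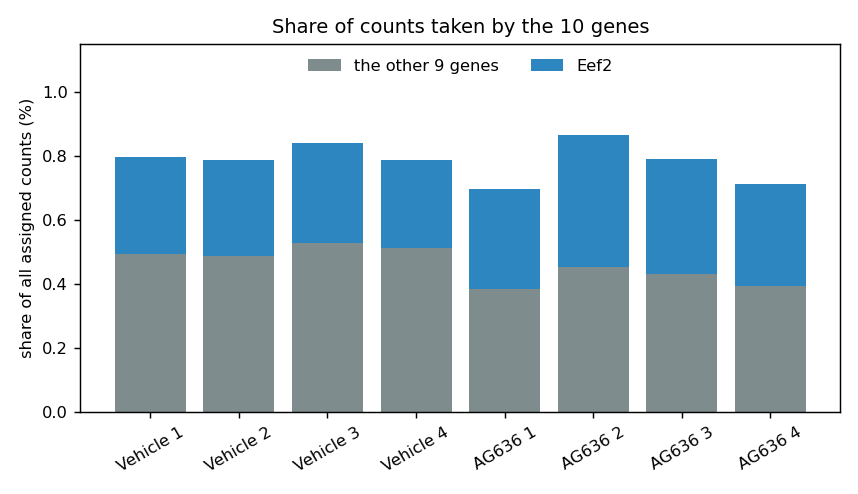
Share of all assigned counts (percent, bars from 0) taken by the 10 genes in each sample, split into Eef2 (blue) and the other 9 genes (grey). The grey part is 0.489% to 0.530% in Vehicle and 0.384% to 0.453% in AG636, while the blue part is 0.276% to 0.310% and 0.312% to 0.413%. Shares are of unscaled totals, and in TMM-scaled CPM the groups overlapped for Eef2.

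Sample 2 was the highest AG636 sample for Eef1a1, Eef1b2, Eef1d, Eef1g and Eef2, and sample 4 was the highest for Eif5a, Etf1, Gspt1, Abce1 and Eef2k. The lowest AG636 sample did not split the factors in this way. It was sample 1 for Eef1d, Eef1g, Eef2, Eif5a and Gspt1, and sample 4 for Eef1a1 and Eef1b2. For Eef2k and Abce1 it was sample 2, and for Etf1 it was sample 3. AG636 sample 2 differed from the Vehicle mean by 0.04 for Eef1b2, -0.03 for Eef1g and 0.46 for Eef2 on the log2 CPM scale, but by -0.85 for Etf1 and -0.84 for Abce1. After each group's mean was subtracted, Pearson's r over the 8 samples was 0.98 for Eef1g and Eef2, 0.96 for Eef1g and Eef1b2 and 0.82 for Abce1 and Etf1, and was -0.88 for Etf1 and Eef1a1. For Eef1d it was 0.72 with Eif5a, 0.61 with Gspt1 and 0.53 with Eef1g, but -0.01 with Eef1a1 and -0.12 with Etf1. These correlations are descriptions over samples that share their library scaling. The coefficient of variation was 2.77% to 8.46% in Vehicle and 11.7% to 26.5% in AG636, and was larger in AG636 for each of the 10 genes, as for 71.0% of all tested genes.

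**Figure D4:**
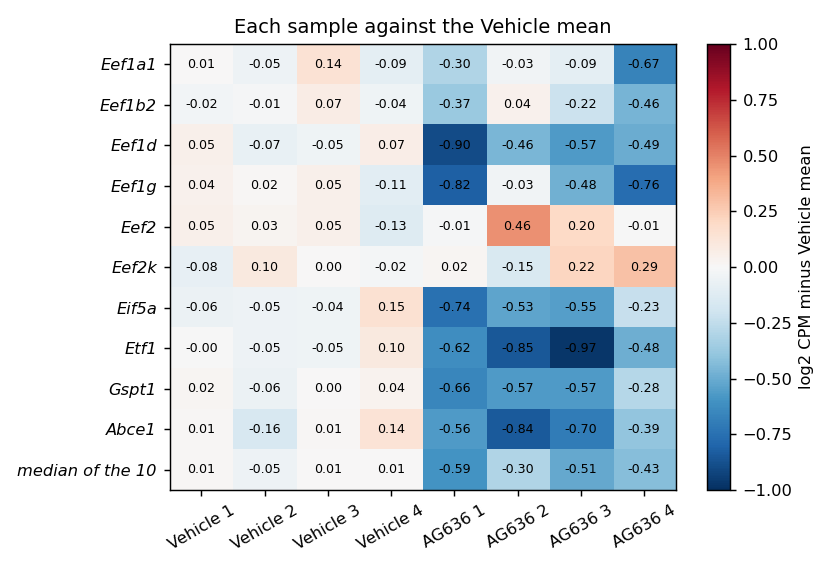
Each sample's log2 CPM minus the mean of the 4 Vehicle samples, for the 10 genes and their median (numbers in the cells, colour from blue, lower, to red, higher). AG636 sample 2 is near 0 for Eef1a1, Eef1b2 and Eef1g and at 0.46 for Eef2, but at -0.85 for Etf1.

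The same sample stood apart among the ribosomal protein genes, whose mRNAs are the main TOP class. Their median over 78 genes was 0.20 above the Vehicle mean in AG636 sample 2, against -0.25, -0.06 and -0.26 in AG636 samples 1, 3 and 4 on the log2 CPM scale. The median over 38 initiation factor genes ran from -0.34 to -0.23 in the 4 AG636 samples. Over the 10 factors it was -0.59, -0.30, -0.51 and -0.43 in AG636 samples 1 to 4, and -0.05 to 0.01 in Vehicle.

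The genes whose log2 CPM followed a factor most closely were found for Eef1a1, Eef2 and Etf1 among 5261 tested genes of at least 5 in average log2 CPM, by Pearson's r over the 8 samples. For Eef1a1 they were Unc119, Rpl41 and Eif2a (r of 0.962, 0.962 and 0.946). For Eef2 they were Eif3f, Numa1 and Rpl27a-ps2 (0.989, 0.976 and 0.973). For Etf1 they were Ppp2r1b, Exosc1 and Heatr1 (0.994, 0.992 and 0.988), with log2 fold changes of -0.41, -0.82 and -0.74. As Etf1 itself was lower in AG636, genes picked for following it over both groups had to be lower too, and this is not a separate result.

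The paralogues that can stand in for these factors were barely detected. Eef1a2, the muscle and neuron form of eEF1A, had 0 counts in all 8 samples, which allows up to 3 counts in a sample. Eif5a2 had counts of 4 in Vehicle sample 1, 2 in AG636 sample 3 and 0 in the rest, and Gspt2 had at most 1 count in any sample. None of these 3 was tested. The other listed partners, the selenocysteine elongation factors Eefsec and Secisbp2 and the eEF1-associated Eef1e1 and Vars, were tested and none passed, with log2 fold changes between -0.32 and 0.16.

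Enzymes that modify the factors were a list of 18 genes, of which 16 were tested, 3 fell and none rose. Eef1akmt4, a lysine methyltransferase of eEF1A, was at 13.2 ± 1.01 CPM in Vehicle and at 6.58 ± 1.5 CPM in AG636, a log2 fold change of -1.02 (adjusted p = 0.008). Dph2, which acts in the first step of diphthamide synthesis on eEF2, was at 14.2 ± 0.907 and 9.24 ± 1.1 CPM, a log2 fold change of -0.62 (limma-voom adjusted p = 0.0214), and its call was lost without Vehicle 1 or without Vehicle 3 (adjusted p of 0.063 and 0.069). Dhps, which starts hypusine synthesis on eIF5A, was at 22.1 ± 3.22 and 15.5 ± 1.41 CPM, a log2 fold change of -0.51 with an adjusted p of 0.0394 that was lost in 11 of 17 alternative fits (highest 0.134), among them those without Vehicle 1, 2 or 4 or without AG636 1, 3 or 4. Dohh, which completes hypusine, was at 32.1 ± 4.04 and 34.4 ± 5.88 CPM and did not pass. Eef1akmt4 overlaps Alg3 on the opposite strand over 143 bases, with 744 counts over all samples for Alg3 against 519 for Eef1akmt4. Dhps overlaps Wdr83 on the opposite strand over 128 bases, with 703 counts for Wdr83 against 985 for Dhps. Eef1akmt4 also shares 7402 bases of its span with Gm49333 on the same strand, which had 0 counts. Whether the counting used strand is not given in the sources used here.

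Of 12 ribosome rescue, recycling and quality control genes, 11 were tested, 2 fell and 1 rose. Denr, which with Mcts1 removes the deacylated tRNA from the small subunit after ABCE1 has acted, was at 247, 205, 239 and 219 CPM in Vehicle and at 148, 115, 157.5 and 141 CPM in AG636. The groups did not overlap, and the log2 fold change was -0.70 (limma-voom adjusted p = 0.004). Its partner Mcts1 was at 90.0 ± 4.22 and 82.4 ± 6.19 CPM and did not pass. Eif2d, a single protein related to both DENR and MCTS1, was at 32.8, 28.6, 36.1 and 30.3 CPM in Vehicle and at 43.1, 39.9, 41.2 and 57.7 CPM in AG636. Its AG636 values lay above all Vehicle values, with a log2 fold change of 0.50 (limma-voom adjusted p = 0.0352). That call was lost when any 1 of Vehicle 1 to 4 or AG636 1 was left out (limma-voom adjusted p of 0.0609 to 0.100). Eif2d overlaps Rassf5 on the opposite strand over 11249 bases, a gene with 3869 counts over the 8 samples against 2027 for Eif2d. Zfp598, a ubiquitin ligase that senses collided ribosomes, was at 49.0 ± 3.49 and 33.8 ± 5.32 CPM, a log2 fold change of -0.55 (limma-voom adjusted p = 0.0168, and 0.0504 without Vehicle 1).

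Among the 9 mitochondrial elongation, release and recycling factors tested none passed, with log2 fold changes between -0.40 and 0.27 and a median of -0.27. Over these 4 lists 40 genes were tested, of which 5 fell and 1 rose, and their median was -0.17. Called genes made up 15.0% of these 40, close to the 14% of all tested genes, and those called lower 12.5% against 8.49%. For comparison, 18 of 38 initiation factors were called lower with a median of -0.32, and 3 of 78 ribosomal protein genes were called lower with a median of -0.10.

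**Figure D5:**
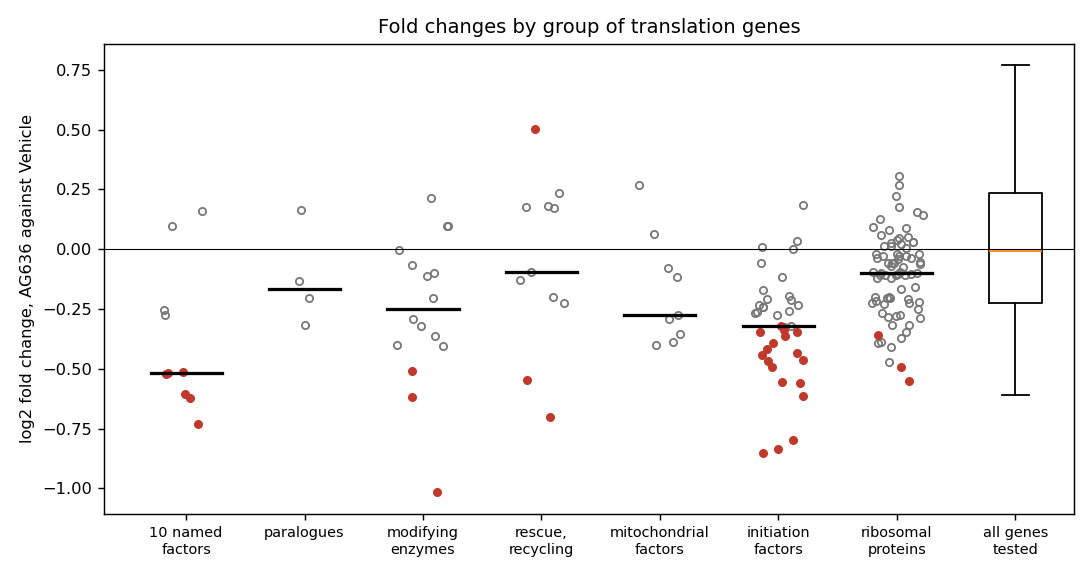
log2 fold change of AG636 against Vehicle for the tested genes of each list of translation genes, with filled red points for an adjusted p below 0.05 and a black line at each median. The box shows the quartiles and median of all 10911 tested genes with whiskers from the percentile 5 to the percentile 95; the medians are -0.52 for the 10 factors, -0.32 for the initiation factors and -0.10 for the ribosomal proteins.

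Markers of other cell types were set beside these results. Mature myeloid markers summed to 42.6 to 99.0 CPM in Vehicle and 16.6 to 189 CPM in AG636. Most of this came from S100a8, with means of 32.5 and 39.6 CPM, and S100a9, with 30.8 and 35.4 CPM. Camp averaged 7.71 and 9.45 CPM and the other listed markers less, with Itgam at no more than 4 counts in any sample. B cell markers summed to 44.1 to 84.1 and 44.5 to 331 CPM, with 1 of 6 tested, Cd79a, called higher. T and NK cell markers summed to 3.50 to 9.32 and 4.95 to 20.7 CPM, and megakaryocyte markers to 12 to 18.1 and 13.1 to 61.0 CPM, with Gp1bb at 0 in all samples. Of the 10 erythroid markers 8 had log2 fold changes above 0 and 1 was called, Hbb-bt, which was higher (log2 fold change 0.90, adjusted p = 0.0238). Slc4a1, at 12.4 ± 2.94 and 41.5 ± 20.4 CPM, narrowly missed the threshold (log2 fold change 1.58, limma-voom adjusted p = 0.0501). None of the 7 progenitor markers tested was called. The part of other cells in the differences of the 10 factors was not tested.

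Promoter windows from RefSeq (GRCm38.p6, 250 bases before to 50 after an annotated start) were matched for 7 of the factors, in 14 windows, and searched on both strands for CACGTG (the Myc E-box), CCGGAAG (an ETS core) and AGATGGC (a YY1 core), and near the start for a run of at least 6 C and T that opens with C. Eef1d, Eef1g and Etf1 had no entry. The stretches below are shown because they set the gene with the highest level, Eef2, and its kinase beside a called and an uncalled factor. Capitals mark the motif or the run.
Eef2, E-box, chr10:81176548-81176633, plus strand: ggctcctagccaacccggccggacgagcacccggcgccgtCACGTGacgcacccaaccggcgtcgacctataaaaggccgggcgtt
Eef2k, E-box, chr7:120842760-120842845, plus strand: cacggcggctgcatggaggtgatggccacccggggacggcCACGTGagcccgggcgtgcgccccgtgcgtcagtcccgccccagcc
Eef2, C and T run, chr10:81176636-81176665, plus strand: cgtcagcggtCTCTTCCgccgcagccgccg
Eef1b2, ETS core, chr1:63176792-63176860, plus strand: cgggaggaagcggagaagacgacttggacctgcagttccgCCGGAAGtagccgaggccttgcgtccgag
Gspt1, ETS core in reverse, chr16:11254419-11254505, minus strand: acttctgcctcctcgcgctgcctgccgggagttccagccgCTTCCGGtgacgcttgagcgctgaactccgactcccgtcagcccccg

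The E-box letters were in 5 of the 14 windows and in 7.15% of all 32851 windows. Of these 5, 1 belonged to Eef2, 1 to Eef2k and 3 to windows of Eif5a, 2 of which overlapped and held the same site. The ETS letters were in 3 of the 14 windows, of Eef1b2, Eif5a and Gspt1, and in 8.86% of all windows. A C and T run of at least 6 bases was in 3 of the 14 windows, of Abce1, Eef1a1 and Eef2 with lengths of 8, 10 and 7, and in 30.8% of all windows, while the YY1 letters were in none of the 14 windows and in 6.4% of all. As some windows of 1 gene overlap, these counts are not independent. Each motif or run occurred both in a factor that fell (Eif5a, Gspt1 or Abce1) and in a factor that did not pass, apart from the YY1 letters. A match describes the sequence and says nothing of binding.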

How the data were processed

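RNA from sorted AML cells was made into QuantSeq 3′ mRNA libraries. The legend of the study gives 1 day of treatment for this model and fewer mice per group than the 4 samples used here. The authors deposited 1 table of counts per gene for 8 samples. Per the labels, cutadapt 1.9.1, HISAT2 2.0.4 and featureCounts of Subread 1.5.0-p3 were used on GRCm38 (mm10). The study's methods name other versions of some tools. The strand setting of the counting is not given in the sources used here.

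Genes were filtered with filterByExpr (minimum count 10), scaled by TMM and tested by the voom method of limma 3.58.1 with edgeR 4.0.16 under R 4.3.3, 4 AG636 against 4 Vehicle samples, with Benjamini-Hochberg adjustment over 10911 genes and a threshold of 0.05. Log2 CPM values used a prior count of 2. Ratios of 6 pairs were compared by exact permutation tests over 70 relabellings, two-sided. Copies of the last 400 bases of each transcript were sought with blastn 2.17.0 (identity of at least 95% over at least 75 bases). The fit was checked on simulated counts. Depth of 6120030 to 7162036 counts per sample sets the counting error, and the limit that 0 counts allow covers that error alone.

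Genes named are the 10 factors, the called genes of each other list with the smallest p (at most 3 in each direction), the paralogues Eef1a2, Eif5a2 and Gspt2, and the 3 genes most correlated with Eef1a1, Eef2 and Etf1. Dohh, Mcts1, Mir703, Naprt and the other genes given values, as well as the sequence stretches, were picked after values were seen. The 10 factors and all lists were chosen with earlier results of these data known. Alternatives were edgeR, DESeq2 1.42.0, quality weights, other scalings and filters, a replicate block and leaving out samples. Protein sequences were not used here.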

Additional observations from a re-analysis of the deposited data

Results flagged for a closer look

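Among 46 combinations of gene or ratio and group of 4, 2 held a sample far from the other 3 by Dixon's test, where chance gives 2.3. Vehicle sample 4 was low for Eef2, at 11.45 in log2 CPM against 11.60 to 11.63 in the other Vehicle samples. Vehicle sample 4 was high for Eif5a, at 10.13 against 9.92 to 9.94. Without Vehicle 4, neither the sign nor the call of Eef2 or Eif5a changed.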

How the results depend on the processing

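The number of the 10 factors called lower was 4 to 7 over 17 alternatives, and none was called higher in any; Eef1d, Etf1, Gspt1 and Abce1 fell in all 17. Eef1b2 was also called with sample quality weights (adjusted p = 0.0437), and Eef1g was also lost by library size alone (0.0535) and without both Vehicle 4 and AG636 3 (0.0693). The 10 directions were kept in all alternatives. The median of the factors was -0.48 with DESeq2, -0.45 by library size alone, -0.49 with at least 10 counts in every sample and -0.45 without both Vehicle 4 and AG636 3, and -0.53 to -0.43 when 1 sample was left out. Genes called numbered 1523, and 688 without Vehicle 3, 798 without Vehicle 1, 918 without Vehicle 2 1010 without Vehicle 4, with 688 to 1706 when 1 sample was left out and up to 1964 (DESeq2) over all alternatives. Of the calls 60.8% were lower, against 38.3% by library size alone (where the median of all genes moved from -0.01 to 0.06); 1489 genes were called there. Other pathway genes called numbered 6, and 3 with no filter on low counts and 2 without Vehicle 1. Leaving mitochondrial genes and Gm42418 out of the total gave summed shares of 0.939% and 0.884%. The ratio of Eef1b2 to Eef1a1 changed sign without Vehicle 3 (-0.00049) and without AG636 4 (-0.040), within a range of -0.040 to 0.070. That of Eef2k to Eef2 changed sign without AG636 2 (0.12), within -0.19 to 0.12. None was called, but 1 ratio alone could not have passed 0.05 after adjustment, so this does not show that the ratios were equal. The cause of these moves was not tested, beyond the smaller number of samples or genes. A replicate block called the same 6 factors; same-numbered samples correlated by -0.14, 0.01, 0.20 and 0.14 in their deviations, so the numbers were not taken as pairs.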
